A study of Nothobranchius furzeri with 20 samples.

Results

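Rotenone blocks complex I, the entry point of electrons from NADH into the mitochondrial respiratory chain. Complex I passes electrons to ubiquinone and pumps protons across the inner membrane, and its inhibition lowers ATP production and can raise the release of reactive oxygen species. Fish skin has a living epithelium and holds mucous cells, pigment cells, scales and immune cells. It lies in direct contact with any compound dissolved in the water. The genes described here are those whose level in skin at the highest rotenone dose, 10% of LC50, stood apart from both lower doses in every library. LC50 is the median lethal concentration.

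Males of the turquoise killifish (Nothobranchius furzeri), an annual fish with a short life, were used throughout, of the strain MZM-04/10p. Each of the 4 groups held 5 libraries of skin RNA: Rotenone at 0.1%, 1% and 10% LC50 at 9 weeks of age, and Rotenone at 1% LC50 at 27 weeks. Each group received rotenone, and no untreated fish enter a comparison here, so differences are between doses or ages under rotenone. The labels do not say how long the fish were treated.

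A gene was taken when its mean over the 20 libraries was at least 1 CPM (the count divided by the column total, times 1000000), and when all 5 libraries at 10% lay above, or all 5 lay below, all 10 libraries at 0.1% and 1% (the lower-dose libraries). Genes whose 27-week range lay wholly outside all 15 libraries at 9 weeks were to be removed. The rule kept up to 200 genes ranked by the difference of mean log2(CPM + 1), and 52 genes met it, of 17060 at or above 1 CPM and 26739 in all. The 27-week condition removed 0 genes. Of the 52, 51 were lower at 10% (0.299% of the 17060 genes) and 1 was higher (0.00586%). These genes were thus chosen by their values at 10% and at the lower doses, and the differences between 10% and the lower doses are given as a description and not tested. With other scalings of the libraries the split between lower and higher genes was different, as described below. In pieces of skin, fewer cells of a type and less RNA per cell cannot be told apart.

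The files list genes by identifier alone and the identifiers could not be paired with names, so no function is given to any member. The tissue could not be checked against its marker genes for the same reason. Only 3 members are given by identifier below, and the remainder by counts and ranges.

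The single gene that was higher at 10% was Nfu_g_1_019742. It had 4.505, 4.85, 4.60, 5.52 and 4.87 CPM in the libraries at 0.1%, 2.74, 2.22, 4.25, 1.91 and 3.58 CPM at 1%, and 6.81, 7.29, 6.53, 6.10 and 5.78 CPM at 10% (replicates 1 to 5 in each). The doses were thus not in order of level: 1% was lowest, 0.1% lay between and 10% was highest. The 10% libraries cleared the highest lower-dose library, replicate 4 at 0.1%, by 4.76%. Means were 6.503 ± 0.594 CPM (SD, n = 5) at 10%, against 4.87 ± 0.395 CPM at 0.1% and 2.94 ± 0.970 CPM at 1%. On the log2(CPM + 1) scale the mean at 10% was 0.66 above that of the 10 lower-dose libraries.

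The rule used the values of the 10 lower-dose libraries but treated them alike, without regard to which were at 0.1% and which at 1%, so these 2 doses were compared with each other. Nfu_g_1_019742 was lower at 1% than at 0.1% by a log2 change of -0.82 (SE 0.20, edgeR quasi-likelihood test, adjusted p = 0.00966), and all 5 libraries at 1% lay below all 5 at 0.1%. The call was lost when the fit held no other library than these 10 (edgeR adjusted p = 0.0606). At 27 weeks the gene had 7.32, 6.06, 5.17, 4.27 and 4.59 CPM, all above the 5 libraries at 1% and 9 weeks, the highest of which was at 4.25 CPM. With TMM factors, described below, the lowest library at 27 weeks was at 3.779 CPM and overlapped the highest at 9 weeks, at 3.797 CPM. The log2 change, 27 over 9 weeks, was 0.85 (SE 0.21, edgeR adjusted p = 0.0390). The rule had placed the 1% libraries below 10%, so this test is not wholly independent of the choice. It passed by little: the call was lost without replicates 1, 2 or 4 at 9 weeks (edgeR adjusted p = 0.0708, 0.103 and 0.0652), and without replicates 1, 2, 3 or 5 at 27 weeks (0.0937, 0.0753, 0.0642 and 0.0721). The call was also lost in a fit of the 10 libraries of both ages (edgeR adjusted p = 0.0794). Limma on log2(RPKM + 1) did not make it either (adjusted p = 0.0522), while DESeq2 did (adjusted p = 0.00318).

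Among the 51 genes lower at 10%, the widest difference was that of Nfu_g_1_005570. It had 13.51, 7.89, 11.46, 19.3 and 11.6 CPM at 0.1%, 9.33, 6.18, 13.46, 10.3 and 15.2 CPM at 1%, and 2.41, 4.84, 3.97, 6.10 and 6.01 CPM at 10%. Both lower doses overlapped each other, and the separation from 10% rested on a gap of 1.33% between replicate 4 at 10% and replicate 2 at 1%. The mean was 4.66 ± 1.54 CPM (SD, n = 5) at 10%, 2.25-fold below the lower doses on the log2(CPM + 1) scale (difference -1.17). Between 1% and 0.1% the log2 change was -0.29 (SE 0.31, edgeR adjusted p = 0.577). At 27 weeks the level was 11.97 ± 6.68 CPM, against 10.9 ± 3.54 CPM at 9 weeks and 1%. The log2 change was 0.08 with an SE of 0.33 (edgeR adjusted p = 0.913). With replicate 2 at 27 weeks (23.6 CPM) left out, it was -0.30 with an SE of 0.28 (edgeR adjusted p = 0.603).

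The most abundant member was Nfu_g_1_019683, also lower at 10%. Its libraries had 178, 187, 147, 196 and 223 CPM at 0.1%, 159.5, 196, 181, 158 and 193 CPM at 1%, and 140.2, 140.2, 107, 94.7 and 138 CPM at 10%. Replicate 3 at 0.1% was the lowest of the lower-dose libraries and lay 5.16% above the highest library at 10%. The difference at 10% was -0.56 on the log2(CPM + 1) scale, a 1.47-fold lower level. At 27 weeks the gene stood at 307, 240, 242, 235.5 and 221 CPM, above every library at 1% and 9 weeks. The log2 change with age was 0.44 (SE 0.13), which did not pass (edgeR adjusted p = 0.0700). The other edgeR fits tried did not pass either, while DESeq2 (adjusted p = 0.0203) and limma on log2(RPKM + 1) (adjusted p = 0.0395) did. That limma fit called 981 of all genes higher and 120 lower, beside 385 and 444 in the main edgeR fit. Without replicate 1 at 27 weeks, the highest library, the log2 change was 0.35 (edgeR adjusted p = 0.161). The rule had placed the 1% libraries above 10%, so this test is not wholly independent of the choice. Between 1% and 0.1% the log2 change was -0.16 (SE 0.14, edgeR adjusted p = 0.491).

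**Figure D1:**
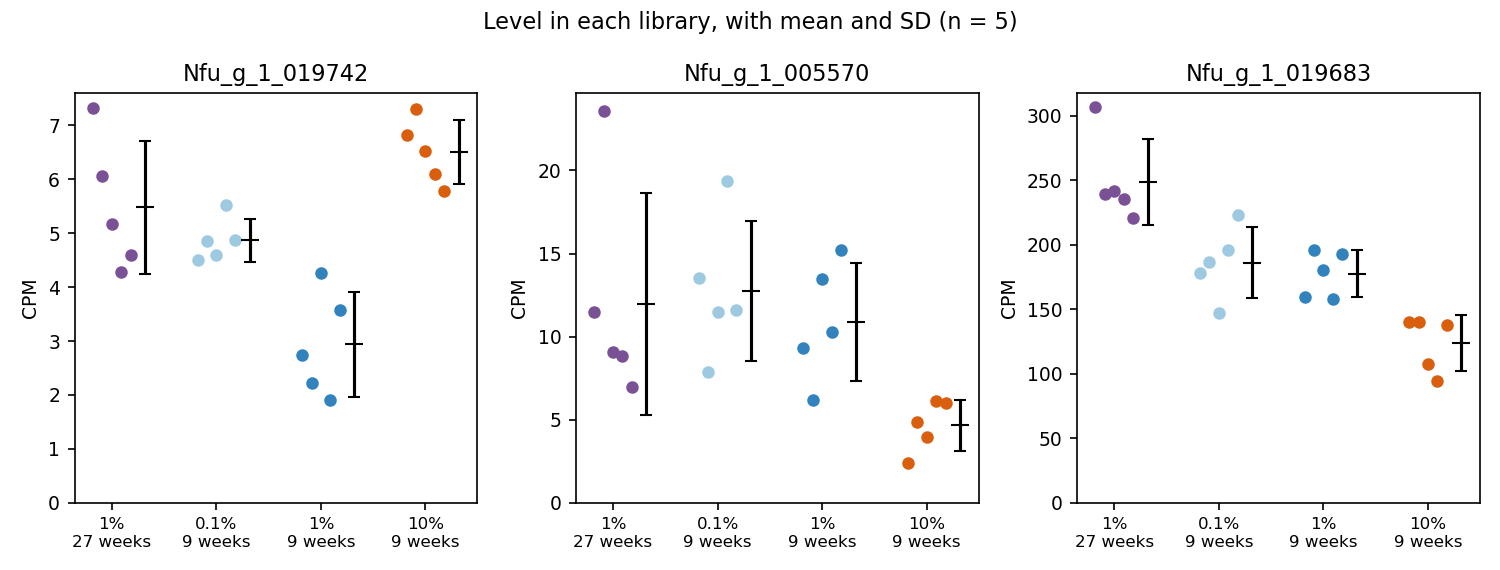
CPM of the 3 members given by identifier in each of the 20 libraries (points, by group) with the group mean and SD (bars, n = 5); the y axes start at 0. Nfu_g_1_019742 lies lowest at 1% and highest at 10% among the 9-week groups, while Nfu_g_1_005570 and Nfu_g_1_019683 lie lowest at 10%, close to the lowest of the lower-dose libraries.

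The other members were all lower at 10% with column totals as the scaling, most of them by little. Over the 51 genes lower at 10%, the difference from the lower doses ran from -1.17 to -0.26 with a median of -0.48, a 1.398-fold lower level. A difference beyond -1 was seen in 2 genes, and one beyond -0.5 in 24. Mean levels ran from 1.19 to 184 CPM with a median of 16.1, close to the 14.2 CPM of all 17060 genes. Of the 51 genes, 16 were under 5 CPM and 11 above 50 CPM. Counts behind a single value ranged from 13 to 8089 reads, and 16 of the 52 members had fewer than 50 reads in at least 1 library.

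The separation was narrow in most members. The lowest of the 10 lower-dose libraries exceeded the highest 10% library by a median of 4.33%, and by under 5% in 29 of the 51 genes. In 8 genes the gap was over 10%, up to 20.51%. The narrowest gap that was kept was 0.00842% and the nearest gene outside had a ratio of 0.9999 between the same libraries. A further 190 genes would have been below the lower doses but for 1 of the 10 libraries. The minimum level left out 7 genes that were otherwise apart, the highest at 0.775 CPM on average.

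**Figure D2:**
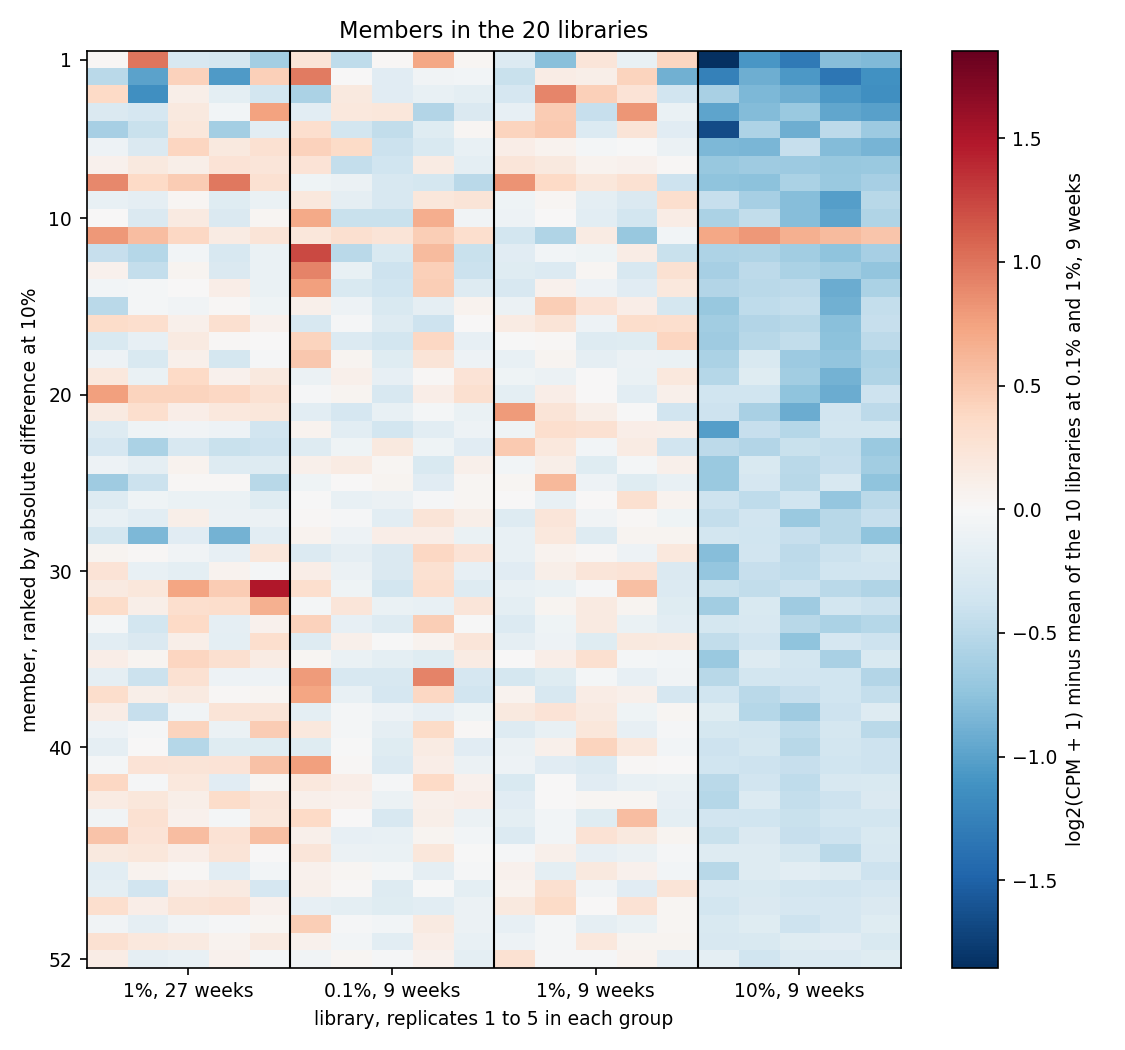
The 52 members (one per line, ranked by absolute difference) in the 20 libraries, coloured by log2(CPM + 1) minus the mean of the 10 lower-dose libraries at 9 weeks. The 10% columns are blue for 51 members, whose differences run from -1.17 to -0.26, and red for the single gene that was higher, at 0.66 and rank 11.

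The edges of the set rested on particular libraries. Replicate 2 at 10% was the highest of the 5 in 19 of the 51 genes, and replicate 3 at 0.1% was the lowest of the 10 lower-dose libraries in 18. Leaving out replicate 2 at 10% raised the number of genes that met the rule to 152, and leaving out replicate 3 at 0.1% to 138. It was 78, 75, 86 and 104 without replicates 1, 3, 4 and 5 at 10%. Principal components were taken of log2(CPM + 1) with TMM factors, over the 17060 genes at or above 1 CPM. Replicates 1 and 4 at 0.1% stood apart on the first (109 and 89.5, the next library at 22.9). Replicates 1 and 2 at 10% stood apart on the second (78.1 and 53.5, the next at 13.3). Without both of these libraries at 0.1%, 82 genes were lower and 15 higher at 10%; without both at 10%, 344 were lower and 31 higher.

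The direction of the set moved with the scaling of the libraries. With column totals most genes were lower at 10%: over all 17060 genes the median difference at 10% was -0.16, and 73.95% of the genes were below 0. TMM factors, which scale a library by the bulk of its genes rather than by its total, were between 0.880 and 0.924 in the 5 libraries at 10%, so that TMM raises each gene there. They ran from 0.833 to 1.19 at 0.1%, from 1.00 to 1.12 at 1% and from 1.02 to 1.13 at 27 weeks. The highest factor at 10% was that of replicate 2, and the lowest at 0.1% that of replicate 3. These libraries were also the most frequent edges of the set, and a link was not tested. With TMM factors the median difference of all genes was -0.003. Relative to the median of all genes, the 51 members had a median difference of -0.33 rather than -0.48.

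With TMM factors the difference at 10% stayed below 0 in all 51 genes, from -1.03 to -0.09 with a median of -0.34. Nothing is read from the sign, which could hardly have changed. The smallest difference with column totals was -0.26, and TMM factors moved the median of all genes only from -0.16 to -0.003. Of the 51 genes, 3 were still apart in every library. Nfu_g_1_019742 remained apart, with a difference of 0.80, whereas Nfu_g_1_005570 (-1.03) and Nfu_g_1_019683 (-0.38) overlapped. The same rule applied to TMM-scaled values took 32 genes, 21 higher (0.123% of 17036 genes) and 11 lower (0.0646%), and 4 of them were members. The split was 20 higher and 13 lower with DESeq2 size factors, and 17 and 12 with upper quartile factors. The split of 51 lower and 1 higher therefore holds for column totals only among the 4 scalings of counts tried. The 10 most abundant genes of a library took 21.3% ± 1.60 of reads at 10% (SD, n = 5), 17.9% ± 4.90 at 0.1% and 17.48% ± 5.11 at 1%. Their part in the excess of lower genes was not tested.

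**Figure D3:**
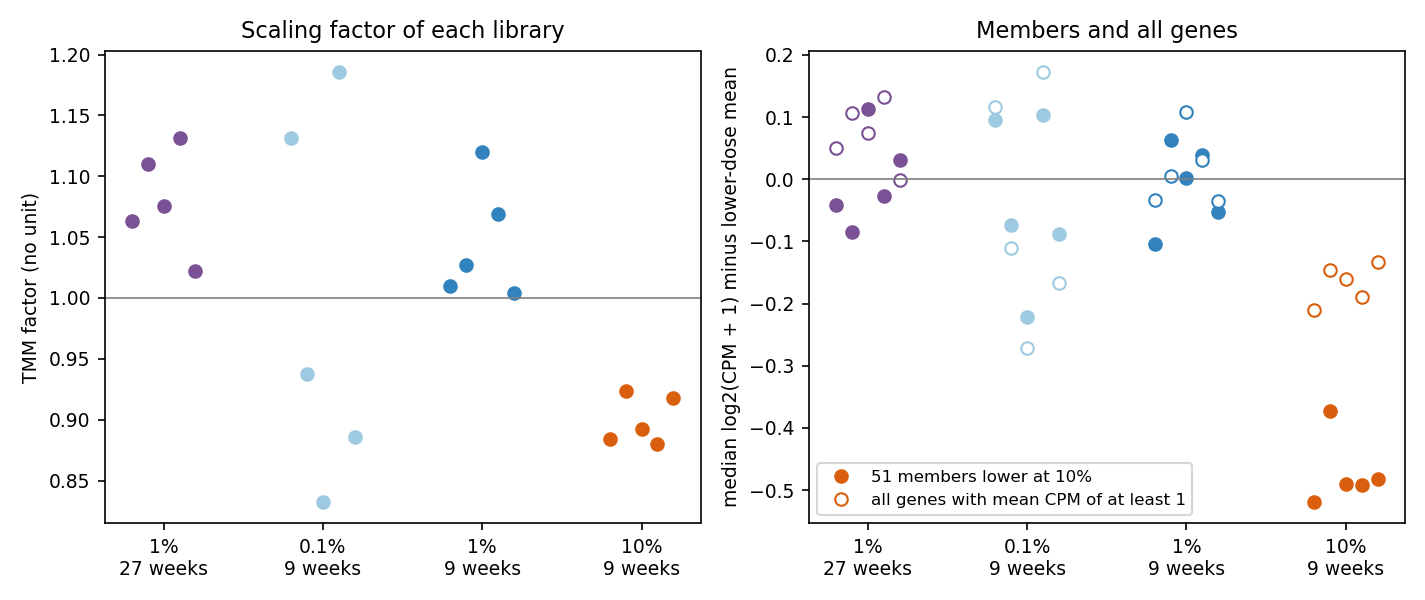
Left, TMM factor of each library by group. Right, median over the 51 members lower at 10% (filled) and over all 17060 genes (open) of log2(CPM + 1) minus the lower-dose mean, per library. At 10% the members lie between -0.52 and -0.37 and all genes between -0.21 and -0.13, so both are below 0 in each of the 5 libraries. All genes are also below 0 in replicates 2, 3 and 5 at 0.1% (-0.11, -0.27 and -0.17), and replicate 3 lies below every 10% library.

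How the choice hung on single libraries at 10% was described by repeating it without each in turn. The other 4 libraries gave 69, 150, 74, 84 and 101 lower genes without replicates 1 to 5. In each case 51 of these, the members, also had the left-out library below all 10 lower-dose libraries. That is 73.9%, 34.0%, 68.9%, 60.7% and 50.5% of them. The mean was 57.6% with an SD of 15.9 over the 5 choices, which share libraries and are not replicates. Among all 17060 genes the same library was below all 10 in 15.3%, 8.3%, 11.6%, 11.9% and 6.29%. The lower-dose libraries served in the choice and again in the comparison, so nothing is read from a share above that of all genes. The shares say how many genes each library removed from the set, most for replicate 2.

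The lower doses were compared with each other in the same genes. Of the 52 members, 0 were called higher and 3 lower at 1% than at 0.1% (edgeR quasi-likelihood test, adjusted p under 0.05), beside 8.43% called higher and 10% called lower of the 18808 genes tested. Besides Nfu_g_1_019742 they were a pair of genes lower at 10%, with log2 changes of -0.47 (SE 0.16, edgeR adjusted p = 0.0454) and -0.26 (SE 0.09, edgeR adjusted p = 0.0482). Only 1 member was called without replicate 1, 2 or 4 at 1%, or without replicate 1, 2, 3 or 4 at 0.1%. The rule requires both lower doses to lie on the same side of 10%, so nothing is read from a share below the background. DESeq2 called 5 members, 2 higher and 3 lower, beside 20.3% of all genes. The difference of 1% over 0.1% on the log2(CPM + 1) scale ran from -0.32 to 0.53 over the 51 genes. Its median was -0.02, beside 0.05 over all 17060 genes, and it was within 0.25 of 0 in 41. The mean at 1% was above that at 0.1% in 25 of the 51 genes, and in 16 with TMM factors. The shares over all genes are not given here, so nothing is read from these counts. Counts for 0.1% were deposited in another table than those for 1%, and dose and table cannot be told apart.

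The level at 27 weeks was set beside those of the young fish. The 27-week mean was placed on a scale where 0 is the mean of the lower-dose libraries and 1 the mean at 10%, both at 9 weeks. Both ends of this scale are values that the rule used, so the positions are a description and nothing is read from their lying near 0. The median over the 51 genes lower at 10% was 0.040, with the quartiles at -0.35 and 0.23. By this measure 47 genes were nearer to the lower doses and 4 nearer to 10%, and 1 of the 4 lay beyond the mean at 10%. The medians of the 5 libraries at 27 weeks were 0.086, 0.16, -0.23, 0.055 and -0.082, an SD of 0.16. With TMM factors the median position was 0.24. With column totals, all 5 libraries at 27 weeks lay above all 5 at 10% in 36 of the 51 genes, beside 20.2% of all 17060 genes. This contrast shares the 10% libraries with the rule. It also depends on the scaling, since TMM factors were 0.880 to 0.924 at 10% and 1.02 to 1.13 at 27 weeks. With TMM factors some of the 36 overlapped, such as a gene with 62.3 CPM in its lowest 27-week library and 73.8 CPM in its highest 10% library. The number still apart with TMM factors was not counted. The single gene higher at 10% stood at 0.65 of the way from the lower doses to 10%.

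**Figure D4:**
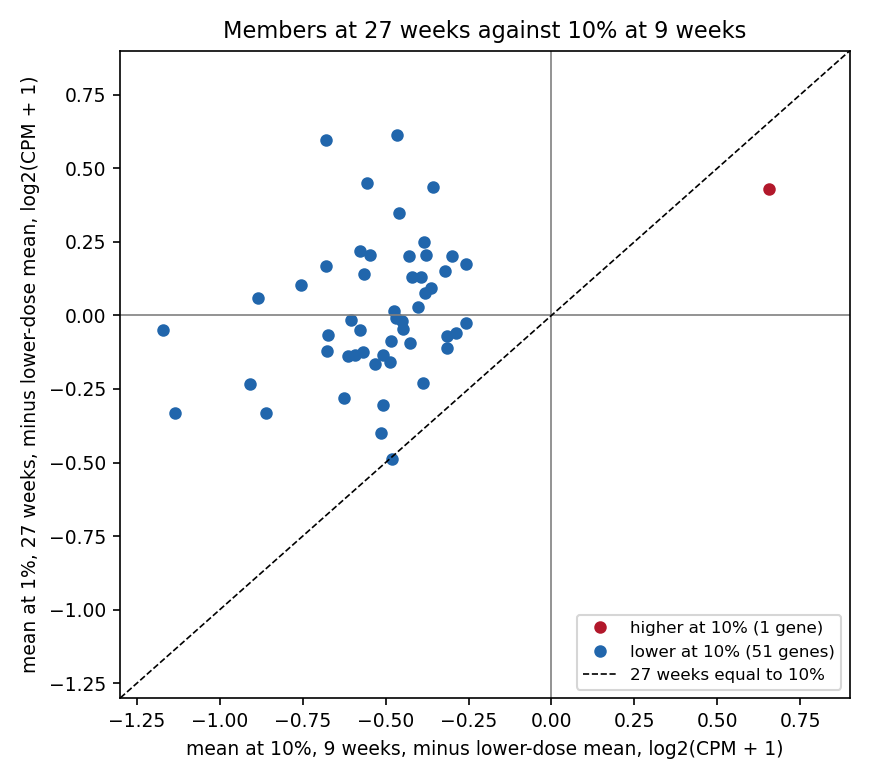
Each member's mean at 27 weeks and 1% minus the lower-dose mean (y axis) against its mean at 10% and 9 weeks minus the same mean (x axis), on the log2(CPM + 1) scale; the dashed line marks equal differences. The 51 genes lower at 10% (blue) spread around 0 on the y axis, and 1 lies just below the dashed line.

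With age at the same dose, 27 against 9 weeks at 1%, 1 of the 52 members was called higher and 1 lower at 27 weeks (edgeR adjusted p under 0.05), beside 2.08% and 2.4% of 18473 genes. The first was Nfu_g_1_019742, and the other a gene lower at 10% that was also lower at 27 weeks, by a log2 change of -0.89 with an SE of 0.24 (edgeR adjusted p = 0.0476). These shares were near the background. The comparison shares the 1% libraries at 9 weeks with the rule, which placed them above 10% in the genes lower at 10%. It is thus not wholly independent of the choice. The gene called lower had a mean of 1.45 CPM over the 20 libraries. With no filter, or with limma on log2(RPKM + 1), 0 members were called lower. A filter of 50 reads in 5 libraries kept 47 of the 52 members, of which 0 were called lower. It did not keep this gene, so the gene was not tested there. DESeq2 called 5 members, 3 higher and 2 lower, beside 9.4% of all genes. Without a test, the 27-week mean was above the 9-week mean in 27 of the 51 genes lower at 10%, with a median difference of 0.03 on the log2(CPM + 1) scale, beside 0.04 over all 17060 genes. No member was called in all fits that left out a library of these groups.

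The comparisons that the rule itself used are given for completeness. Between 10% and 1%, 11 of the 52 members were called, 1 higher and 10 lower (edgeR adjusted p under 0.05), beside 4.22% and 4.88% of 18473 genes. The number was 4 without replicate 2 at 10% or replicate 2 at 1%, and 18 without replicate 3 at 1%. Between 10% and 0.1%, 0 of the 52 members were called by edgeR, as were 0% of the 18808 genes, while 38 members and 3855 genes had an unadjusted p under 0.05. DESeq2 called 21 members there, all lower, beside 4.28% of all genes, and 21 members between 10% and 1%, beside 12.1%. Nothing is read from these counts, since the members were chosen for lying apart in the same libraries.

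Features that the rule did not use directly were compared without a test. With each library's median set to 1, the ratio of CPM to RPKM changed between the libraries of a gene. The median change was 80.7% of the lowest value, so lengths taken from the ratio are approximate. A gene's median ratio without that scaling was a stand-in for its length. This length had a median of 2.67 kb over the 51 genes lower at 10% (quartiles 1.34 and 5.59). Over all 17060 genes the median was 2.84 kb (quartiles 1.44 and 4.89). The SD between the 5 libraries at 27 weeks, which took no part in the separation, had a median of 0.180 on the log2(CPM + 1) scale in these members and 0.210 over all genes. In the libraries the rule used, the same medians were 0.136 against 0.237 at 10%, where the rule itself selects for a small spread. They were 0.173 against 0.277 at 1% and 0.180 against 0.351 at 0.1%. A gene with a small spread at 9 weeks may also have one at 27 weeks, so nothing is read from the 27-week values.

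Summed over the 51 genes lower at 10%, the level was 1102 ± 63.0 CPM at 10% (SD, n = 5), against 1589 ± 174 CPM at 0.1% and 1558 ± 76.3 CPM at 1%. At 27 weeks it was 1713 ± 93.4 CPM. With TMM factors the sums were 1224 ± 45.4 CPM at 10%, 1610 ± 123 CPM at 0.1%, 1491 ± 83.3 CPM at 1% and 1590 ± 137 CPM at 27 weeks. With column totals the separation of the sums at 10% from those at the lower doses follows from the choice of the genes, and the sums with TMM factors are of the same chosen genes; neither is a result of its own.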

How the data were processed

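Skin RNA of killifish was sequenced in 20 libraries, 1 per sample. Per the submitters' processing notes, reads were handled with featureCounts 1.4.6-p4, STAR 2.4.1d and CASAVA 1.8.2; build, annotation and strand setting were not given in the sources used here. Counts deposited by the authors are whole reads per gene without normalization, in 2 tables that list the same 26739 genes, 1 holding the 0.1% libraries. They also deposited RPKM values. The ratio of CPM to RPKM was taken over 12968 genes with at least 50 reads in each library, and each library's median was set to 1. Between a gene's libraries it differed by a median of 80.7%. It would be constant if gene lengths were the same for all libraries and all rows of a library shared 1 divisor. Which of these does not hold was not tested. RPKM therefore served only in alternatives, which carry this fault, and as an approximate stand-in for gene length. Columns were matched by title; 10 columns of counts and 9 of RPKM match no sample described here and were not used.

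CPM is a count divided by the column total, times 1000000. Groups follow the labels' dose and age. Separate fish per library are not stated, and p-values therefore cover the spread among the libraries only. Comparisons used edgeR 4.0.16 in R 4.3.3 (TMM, filterByExpr, quasi-likelihood test, two-sided, Benjamini-Hochberg over all genes tested), with 20 libraries where 0.1% enters and 15 otherwise. Each SE is the log2 change divided by the square root of F. On simulated counts with 200 changed genes, the fit for 1% against 0.1% (18719 genes) found 6 of the 67 with a 1.5-fold change. It found 18 of the 67 with a 2-fold and 54 of the 66 with a 4-fold change, and 4 of 82 calls were false. The fit for 27 against 9 weeks (18532 genes) found 4 of 67, 16 of 67 and 58 of 66, and 3 of 81 calls were false. In both fits most of the 67 genes with a 1.5-fold change were thus missed on these counts. More genes were called in the data. For 1% against 0.1% they were 1585 higher and 1888 lower of 18808, with a member at a log2 change of -0.26 among them. For 27 against 9 weeks they were 385 higher and 444 lower of 18473. The shares found may therefore differ in the data, where they were not tested.

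The members and lists were chosen with earlier results of these data known. The identifiers named are, in each direction, the member with the largest difference and the most abundant one. A table of names for another assembly, NfurGRZ-RIMD1, held 0 of the 26739 identifiers, so gene lists, cell type markers and sequences could not be used. Alternatives were other scaling factors (TMM, DESeq2 size factors, upper quartile), filters, a pseudocount of 0.1, DESeq2 1.42.0, limma 3.58.1 on log2(RPKM + 1), fits of 10 libraries and leaving out libraries; that without replicates 1 and 2 at 10% was added after the data were seen. Library totals ran from 21770720 to 29017737 reads. The gap of Nfu_g_1_019742 lay between 149 reads at 10% and 140 reads at 0.1%. That of Nfu_g_1_005570 lay between 177 reads at 10% and 142 reads at 1%. Whether gaps as narrow as these exceed counting error was not tested.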

Additional observations from a re-analysis of the deposited data

Results flagged for a closer look

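In 16 groups of 5 values examined (the 3 members given by identifier and the summed level of the 51 genes lower at 10%, in 4 groups each), 2 values lay farther from the next than Dixon's limit of 0.71 of the range, which chance passes in about 1 of 20 groups. Both were at 27 weeks. Nfu_g_1_005570 was at 23.6 CPM in replicate 2, with the other 4 libraries between 6.95 and 11.46 CPM. Nfu_g_1_019683 was at 307 CPM in replicate 1, with the other 4 between 221 and 242 CPM.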

How the results depend on the processing

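The 52 genes became 32, 33 and 29 with TMM, DESeq2 size and upper quartile factors, with 21, 20 and 17 higher at 10% in place of 1. With the deposited RPKM, whose ratio to CPM differed between a gene's libraries, they were 15, of which 5 were higher. Without replicates 1 and 4 at 0.1% they were 97 (15 higher), and without replicates 1 and 2 at 10% 375, of which 19 among the first 200 were higher. With no minimum on mean CPM 4 were higher, and with a minimum of 5 CPM 0 were. Leaving out 1 library gave 50 to 152 genes and 1 to 9 higher.

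Of the 3 members called between 1% and 0.1%, the number was 1 with upper quartile factors, no filter, limma on RPKM, or either pair of libraries left out, 5 with DESeq2, 0 in a fit of 10 libraries, and 1 to 3 with 1 library left out. The 2 called with age became 1 with no filter or a filter of 50 reads in 5 libraries. That filter left the gene called lower at 27 weeks untested. The number was 5 with DESeq2, 0 in a fit of 10 libraries and 0 to 3 with 1 library left out. The 11 called between 10% and 1% became 21 with DESeq2, 6 in a fit of 10 libraries, 3 without replicates 1 and 2 at 10%, and 4 to 18 with 1 library left out. The 0 called between 10% and 0.1% became 21 with DESeq2 and stayed 0 to 0 with 1 library left out. The median 27-week position moved from 0.040 to 0.24 with TMM factors. The cause of these moves was not tested.

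No paired analysis was possible because the replicate numbers follow accession order and pair no libraries across groups.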
